A study of Mus musculus with 9 samples.

Results

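The genes described here are 50 genes that dividing cells switch on: the helicase and clamp of DNA replication, the enzymes that supply its nucleotides, the transcription factors of the cell cycle, the cyclins, and the kinases, motors and scaffold proteins of mitosis and cytokinesis. A gene was measured where a transcript cluster of the array carried its symbol and no other, and where several clusters did, the brightest by its mean stood for the gene. By this rule 47 of the 50 genes were measured, among 30142 genes in all. Mcm7, Foxm1 and Ccnb1 were not measured. The members were chosen as a functional list and not by their values, although results of these data were known when the list was made.

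The data are Affymetrix array profiles of whole skin from 9 male C57BL/6 mice aged 6-8 weeks, with 3 arrays per group, labelled as biological replicates. In the oxazolone group and in the urushiol group, allergic contact dermatitis was raised by sensitising the shaved abdomen with 2.0% of the allergen and, 5 days later, painting the shaved nape with 0.5% of it in acetone (40 µl). The nape was painted 5 times, the last time on day 8, and neck skin was taken 4 hours after that. Oxazolone is a small reactive hapten, and urushiol is the oily allergen of poison ivy and lacquer trees. The control group is labelled healthy skin, and the labels do not say whether its mice were shaved or painted with acetone. Shaving, acetone and allergen therefore cannot be told apart in a difference from control.

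A cell that commits to division loads the Mcm helicase on its replication origins, raises its supply of deoxynucleotides, copies its DNA around the Pcna clamp, and then builds a spindle, attaches its chromosomes at kinetochores and splits. Transcription of these genes is held down in resting cells and released in waves: E2F factors act at the start of S phase, and the MuvB complex with B-Myb and Foxm1 acts towards mitosis. In skin, the basal layer of the epidermis and the matrix of a growing hair follicle hold dividing cells, and epidermis thickens under repeated contact allergen. In whole tissue, a change in the number of dividing cells and a change in RNA per cell cannot be told apart.

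Control array 3 did not match the rest of its group. Across genes, which are not independent replicates, its correlation with control arrays 1 and 2 was 0.979 and 0.978, where that between those arrays was 0.995. Of 27 genes of growing hair, 24 were measured, and their mean log2 value was 11.14 on control array 3, against 5.99 and 6.07 on control arrays 1 and 2. The challenged arrays lay at 10.93, 13.73 and 11.87 for oxazolone and at 10.46, 11.00 and 10.21 for urushiol, so the hair genes of control array 3 were at the level of challenged skin. Counts and most gene values are therefore given with all 9 arrays and with the 8 arrays left without control array 3, and the plot of differences shows both for every member. The second form rests on 2 control arrays, and the array left out is also the control with the highest values of the genes described here.

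With all 9 arrays, all 47 measured genes were on average higher in both allergen groups than in control skin, but few differences passed the test. The test was limma's moderated test in 1 fit of all arrays, with p-values adjusted over all 30142 genes and a threshold of 0.05. In oxazolone skin 3 of the 47 genes rose (Cdk1, Cenpe and Rrm2) and 0 fell, where 9.63% of all genes were higher and 6.92% lower. In urushiol skin 4 rose (Mcm3, Mcm4, Rrm1 and Rrm2) and 0 fell, where 9.96% of all genes were higher and 6.43% lower. The members' share of calls was thus no larger than that of all genes. Before adjustment, 43 of the 47 had a p under 0.05 for oxazolone and 42 for urushiol. The share of all genes with such a p is not given here, so these counts have no background beside them. The median log2 difference from control was 1.32 for oxazolone and 1.36 for urushiol, beside 0.06 and 0.04 over all genes.

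Without control array 3, 45 of the 47 genes rose in oxazolone skin and 0 fell, where 15.8% of all genes were higher and 10.8% lower. The same count, 45 higher and 0 lower, was reached in urushiol skin, where 15.1% of all genes were higher and 10.2% lower. The 2 genes that did not pass in either comparison were E2f1 and Ttk. The medians over the members were then 1.87 for oxazolone and 1.94 for urushiol. Counted by arrays alone, all 3 oxazolone arrays lay above all 3 control arrays for 29 of 47 members, as for 21.3% of all genes, and above both remaining controls for 47, as for 31.1% of all genes. All 3 urushiol arrays lay above all 3 controls for 27 members, as for 21.1% of all genes, and above both remaining controls for 46, as for 30.7% of all genes; Ttk was the exception.

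**Figure D1:**
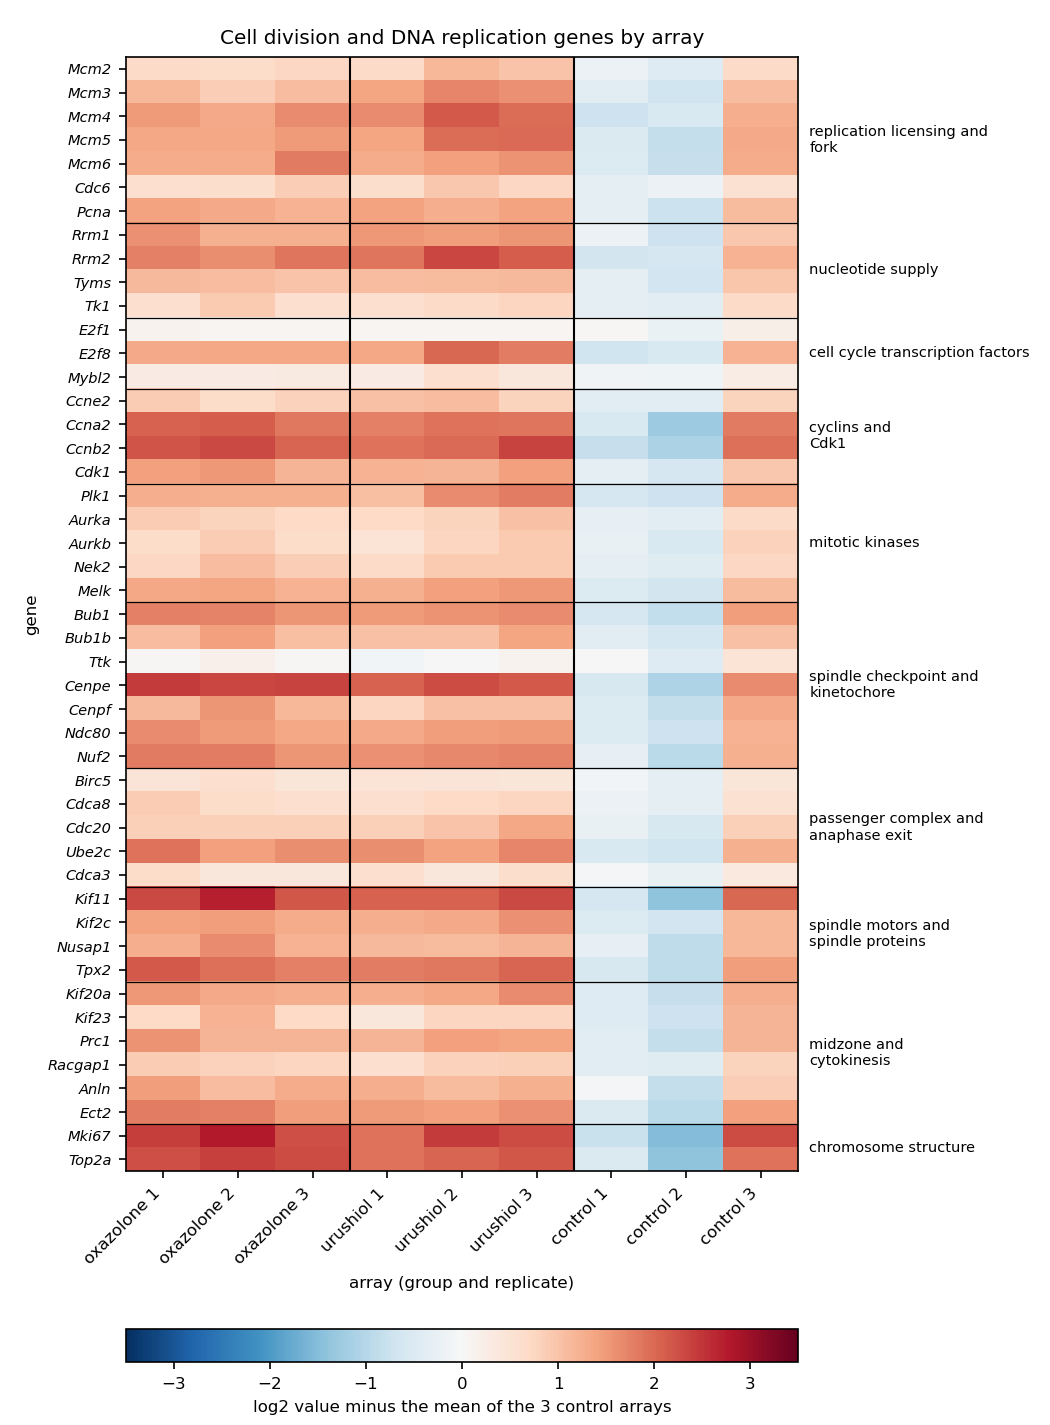
Each row is 1 measured gene, grouped by role, and each column 1 array, in the order oxazolone, urushiol, control. Colour is the log2 value minus the mean of the 3 control arrays, red above it and blue below it. The 6 challenged arrays and control array 3 are red for nearly every gene, control arrays 1 and 2 are blue, and E2f1 and Ttk stay pale throughout.

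The array means of the 47 genes show how the groups lay. The mean log2 value was 9.17, 9.17 and 9.08 on the oxazolone arrays and 9.02, 9.18 and 9.24 on the urushiol arrays, against 7.48, 7.18 and 8.97 on control arrays 1, 2 and 3. Control array 3 was just under the lowest challenged array, and the other controls lay far below. It was above both other controls for all 47 members, where 36.9% of all genes showed that order, by a median of 1.73 (range 0.305 to 3.41). It lay below all 6 challenged arrays for 24 members, within their range for 21, and above all 6 for E2f1 and Ttk. The mean of the challenged arrays exceeded control array 3 by a median of 0.16 over the members, against a median range of 0.38 across the 6 challenged arrays.

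**Figure D2:**
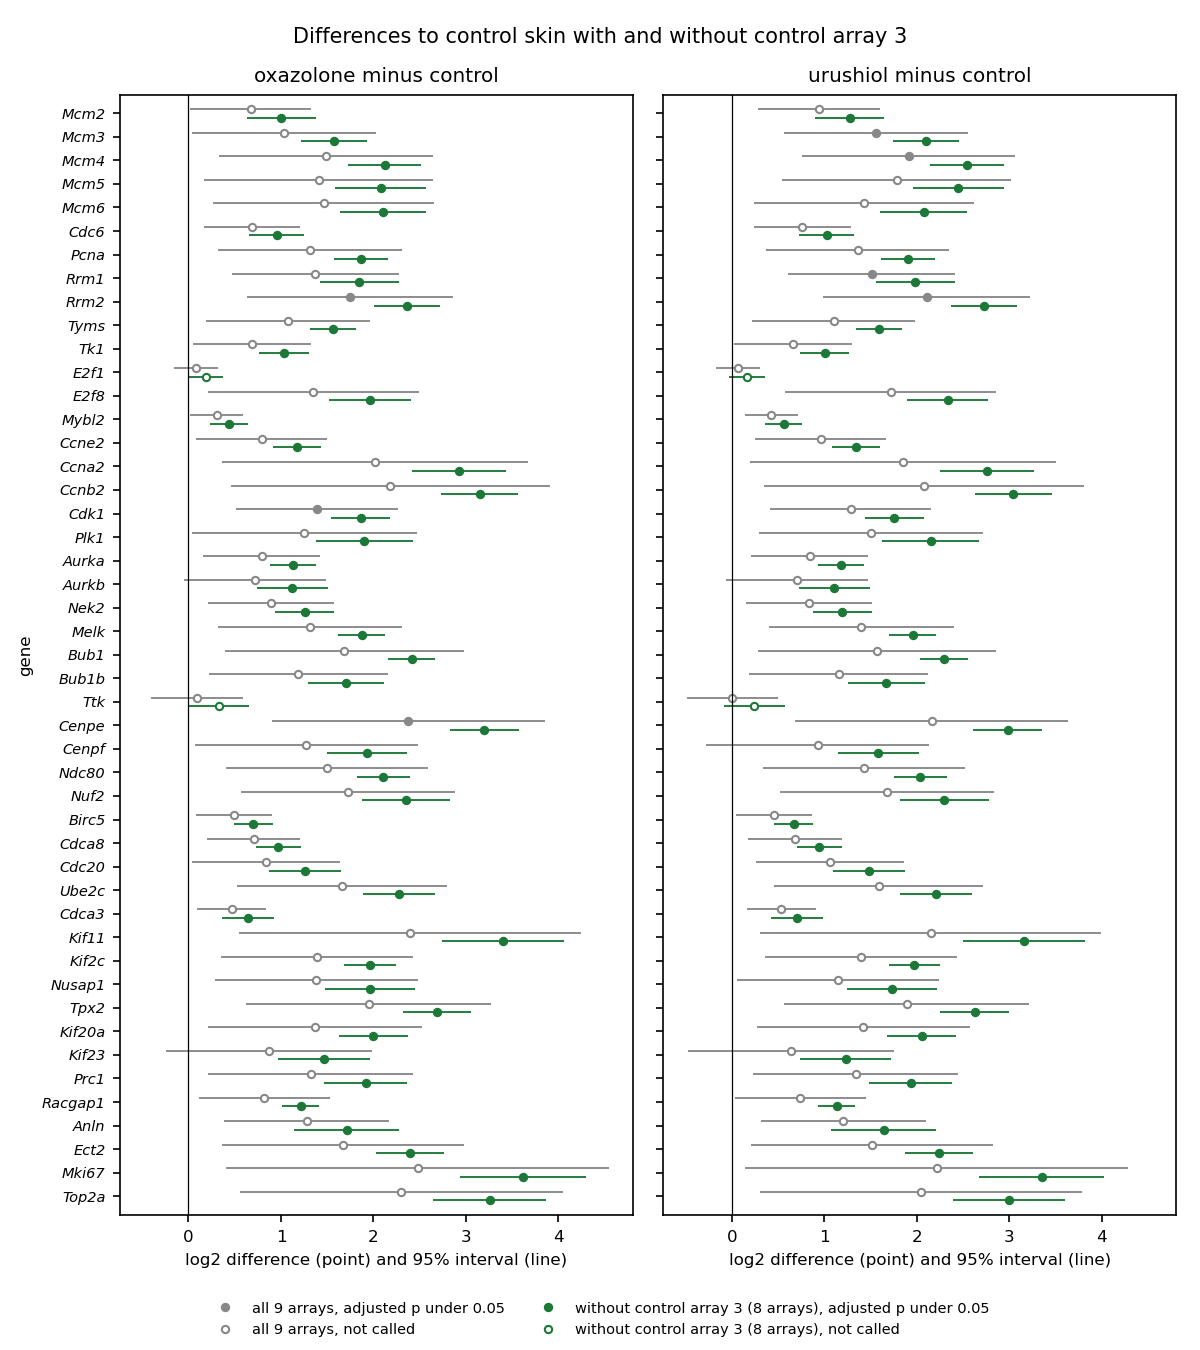
The log2 difference of each gene from control skin (point) is drawn with its 95% interval (line), for oxazolone on the left and urushiol on the right. Grey is the fit of all 9 arrays and green the fit of 8 arrays; filled points have an adjusted p under 0.05, 3 and 4 of 47 in grey and 45 of 47 on each side in green.

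Promoters of 4 members are shown as examples of the 2 phases of the programme. These genes were among the 45 of 47 members that rose for each allergen in the 8-array comparison. Both replication promoters shown are among the 4 of 10 replication and nucleotide genes with an E2F form. Mcm3 and Mcm6 encode helicase subunits of S phase, and Cdk1 and Ccnb2 encode the mitotic kinase and one of its cyclins. Each sequence is the gene's own strand from 250 bases before to 50 bases after the start in RefSeq (GRCm38.p6), and capitals mark matches to 3 motifs on either strand: TTTGAA (the core of the cell cycle homology region, CHR, read by MuvB), CCAAT, and the E2F forms TTTCCCGC, TTTCGCGC, TTTGCCGC and TTTGGCGC.
Mcm3, chr1:20820263-20820562, minus strand: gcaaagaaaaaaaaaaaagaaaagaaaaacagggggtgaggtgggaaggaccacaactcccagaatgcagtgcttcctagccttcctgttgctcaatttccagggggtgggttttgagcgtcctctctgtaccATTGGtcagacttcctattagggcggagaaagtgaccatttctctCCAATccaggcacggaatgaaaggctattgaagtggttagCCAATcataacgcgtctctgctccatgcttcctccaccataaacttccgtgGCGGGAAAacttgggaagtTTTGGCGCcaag
Mcm6, chr1:128359656-128359955, minus strand: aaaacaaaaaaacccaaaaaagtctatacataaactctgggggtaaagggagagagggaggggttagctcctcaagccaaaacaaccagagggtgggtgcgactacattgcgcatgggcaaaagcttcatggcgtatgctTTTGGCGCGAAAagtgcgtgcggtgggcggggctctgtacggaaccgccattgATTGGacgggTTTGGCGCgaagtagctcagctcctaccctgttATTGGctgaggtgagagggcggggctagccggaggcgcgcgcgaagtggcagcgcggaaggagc
Cdk1, chr10:69352863-69353162, minus strand: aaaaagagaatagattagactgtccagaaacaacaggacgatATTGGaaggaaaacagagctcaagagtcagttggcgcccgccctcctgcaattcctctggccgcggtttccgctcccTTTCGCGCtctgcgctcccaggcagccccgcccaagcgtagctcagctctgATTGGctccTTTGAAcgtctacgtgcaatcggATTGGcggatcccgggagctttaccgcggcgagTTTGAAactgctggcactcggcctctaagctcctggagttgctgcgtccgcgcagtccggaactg
Ccnb2, chr9:70421505-70421804, minus strand: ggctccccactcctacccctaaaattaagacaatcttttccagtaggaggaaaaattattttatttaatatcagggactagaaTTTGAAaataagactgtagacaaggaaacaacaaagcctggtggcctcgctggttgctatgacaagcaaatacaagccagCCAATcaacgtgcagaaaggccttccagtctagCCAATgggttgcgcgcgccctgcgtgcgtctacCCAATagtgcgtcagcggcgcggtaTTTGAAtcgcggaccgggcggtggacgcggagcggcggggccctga
The 2 helicase promoters carry E2F letters and no CHR letters, Ccnb2 carries CHR and CCAAT letters without an E2F form, and Cdk1 carries all 3.

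A promoter was listed for 41 of the 47 genes, within a table of 27018 genes. TTTGAA occurred in 21 of 28 cyclin and mitosis genes (75.0%) and in 1 of 10 replication and nucleotide genes (10%), and in 20.2% of all genes. The E2F forms ran the other way, with 1 of 28 cyclin and mitosis genes (3.6%), 4 of 10 replication and nucleotide genes (40.0%) and 2.6% of all genes. CCAAT was found in 75.0% and 70.0% of these 2 classes and in 41.1% of all genes. TTTGAA and CCAAT stood in the same promoter in 64.3% of cyclin and mitosis genes, 10% of replication and nucleotide genes and 8.0% of all genes. In 20 of the 23 genes with TTTGAA, a match began within 40 bases before or 49 bases after the start. In 2 genes, Mcm5 and Mcm6, an E2F match on one strand overlapped an E2F match on the other. A match of letters is a description and not a site of binding, and no match says only that these letters are not in the window.

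**Figure D3:**
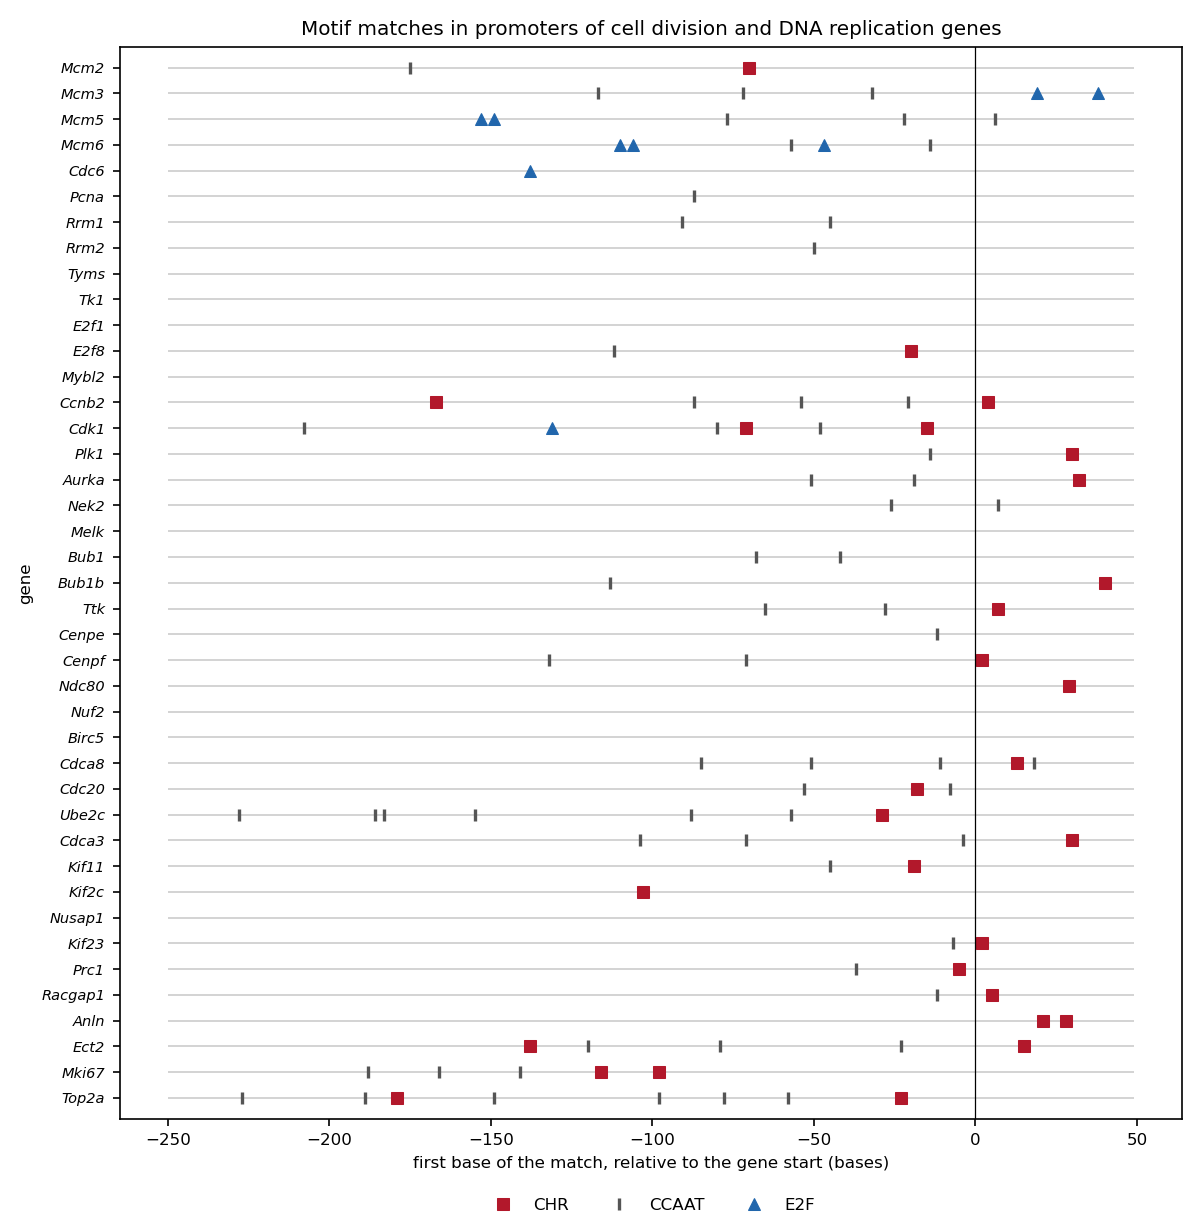
Each line is the promoter window of 1 member, from 250 bases before to 49 bases after the gene start, in the order of the roles (for a gene with several listed starts, the one with the lowest coordinate). Red squares mark TTTGAA, grey ticks CCAAT and blue triangles the E2F forms, each placed at its first base; the triangles sit in Mcm3, Mcm5, Mcm6, Cdc6 and Cdk1, and most red squares lie near the start of the mitosis genes.

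Replication genes come first in the programme. Mcm2, Mcm3, Mcm4, Mcm5 and Mcm6 are subunits of the ring that unwinds DNA, Cdc6 helps load that ring, and Pcna is the clamp that holds the polymerase. Of these 7 genes 0 rose in oxazolone skin and 2 in urushiol skin with all 9 arrays, and 7 rose in each without control array 3. Mcm4 had log2 values of 10.12, 9.94 and 10.26 on the oxazolone arrays and 10.27, 10.75 and 10.56 on the urushiol arrays, against 7.88, 8.09 and 9.88 on the control arrays. Its challenged arrays all lay above all 3 controls, with control array 3 next below them. The log2 difference from control was 1.49 ± 0.49 (adjusted p = 0.0797) for oxazolone and 1.91 ± 0.49 (adjusted p = 0.0409) for urushiol (± is the standard error of the fit, with 3 arrays per group). It was 2.12 ± 0.16 (adjusted p = 0.000381) and 2.54 ± 0.16 (adjusted p = 0.000199) without control array 3.

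Mcm3 had log2 values of 8.40, 8.11 and 8.33 on the oxazolone arrays and 8.62, 8.96 and 8.84 on the urushiol arrays, against 6.86, 6.55 and 8.33 on the control arrays. Every urushiol array was above every control, whereas control array 3 fell among the oxazolone arrays. The difference was 1.03 ± 0.42 (adjusted p = 0.134) for oxazolone and 1.56 ± 0.42 (adjusted p = 0.0471) for urushiol, and 1.57 ± 0.15 and 2.10 ± 0.15 without control array 3. Mcm5 had log2 values of 8.40, 8.40 and 8.54 on the oxazolone arrays and 8.43, 9.0 and 9.03 on the urushiol arrays, against 6.54, 6.20 and 8.37 on the control arrays. Control array 3 was just below the lowest challenged array, so the groups did not overlap, yet the differences of 1.41 ± 0.53 (adjusted p = 0.107) and 1.78 ± 0.53 (adjusted p = 0.0606) did not pass. Mcm2 had log2 values of 7.74, 7.71 and 7.80 on the oxazolone arrays and 7.74, 8.24 and 8.08 on the urushiol arrays, against 6.87, 6.62 and 7.74 on the control arrays. Control array 3 lay among the oxazolone arrays, while the other controls were lower than every challenged array. Its differences were 0.67 ± 0.28 and 0.94 ± 0.28, and 1.0 ± 0.15 (adjusted p = 0.00494) and 1.27 ± 0.15 (adjusted p = 0.002) without control array 3.

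Pcna had log2 values of 11.51, 11.43 and 11.34 on the oxazolone arrays and 11.52, 11.39 and 11.51 on the urushiol arrays, against 9.76, 9.37 and 11.21 on the control arrays. The 6 challenged arrays spanned 0.18 log2 units and all lay above the controls. Its differences of 1.31 ± 0.42 (adjusted p = 0.0746) for oxazolone and 1.36 ± 0.42 (adjusted p = 0.0707) for urushiol did not pass, and those of 1.86 ± 0.12 (adjusted p = 0.000195) and 1.91 ± 0.12 (adjusted p = 0.000189) without control array 3 did.

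The 4 genes of nucleotide supply hold the only member that rose for both allergens with all 9 arrays. Rrm2, the S-phase subunit of ribonucleotide reductase, had log2 values of 9.76, 9.63 and 9.88 on the oxazolone arrays and 9.87, 10.36 and 10.12 on the urushiol arrays, against 7.37, 7.42 and 9.24 on the control arrays. All challenged arrays were above control array 3, which was itself above the other controls. The difference was 1.75 ± 0.48 (adjusted p = 0.0478) in oxazolone skin and 2.11 ± 0.48 (adjusted p = 0.0277) in urushiol skin. It was 2.36 ± 0.15 and 2.72 ± 0.15 without control array 3. Rrm1, the large subunit of the same enzyme, had log2 values of 12.07, 11.72 and 11.72 on the oxazolone arrays and 11.98, 11.92 and 12.02 on the urushiol arrays, against 10.25, 9.73 and 11.41 on the control arrays. Again no control reached a challenged array, with differences of 1.37 ± 0.38 (adjusted p = 0.0509) and 1.51 ± 0.38 (adjusted p = 0.039), and 1.85 ± 0.18 and 1.98 ± 0.18 without control array 3. Tyms, which makes thymidylate, and Tk1, which salvages thymidine, had differences of 1.08 ± 0.37 and 0.69 ± 0.27 for oxazolone and 1.10 ± 0.37 and 0.66 ± 0.27 for urushiol, and neither passed until control array 3 was left out.

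Of the transcription factors, 3 of 4 were measured and 0 rose with all 9 arrays. E2f8, an atypical E2F that represses its targets late in S phase, had log2 values of 9.05, 9.08 and 9.08 on the oxazolone arrays and 9.07, 9.73 and 9.51 on the urushiol arrays, against 7.03, 7.18 and 8.95 on the control arrays. Its 6 challenged arrays lay above all controls, with differences of 1.35 ± 0.48 (adjusted p = 0.0977) and 1.72 ± 0.48 (adjusted p = 0.0528), and 1.97 ± 0.18 (adjusted p = 0.000756) and 2.33 ± 0.18 (adjusted p = 0.000396) without control array 3. Mybl2 (B-Myb), the partner of MuvB, had log2 values of 6.18, 6.18 and 6.21 on the oxazolone arrays and 6.18, 6.47 and 6.28 on the urushiol arrays, against 5.77, 5.73 and 6.15 on the control arrays. All 9 values lie between 5.73 and 6.47, and its differences of 0.31 ± 0.12 and 0.43 ± 0.12 passed when control array 3 was left out (0.44 ± 0.084 (adjusted p = 0.0112) and 0.56 ± 0.084 (adjusted p = 0.00457)). E2f1, an activator of S-phase genes, had log2 values of 6.20, 6.14 and 6.14 on the oxazolone arrays and 6.14, 6.14 and 6.14 on the urushiol arrays, against 6.11, 5.84 and 6.28 on the control arrays. Control array 3 held its highest value and 5 arrays shared the value 6.14. Its differences of 0.08 ± 0.10 (adjusted p = 0.6) and 0.06 ± 0.10 (adjusted p = 0.731) did not pass in either form, with 95% intervals of -0.15 to 0.32 and -0.17 to 0.30. E2f1 and Mybl2 both averaged 6.13 over all arrays, near the median of all genes (6.06 to 6.18 by array). How far this low level limits their differences was not tested.

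Of the 4 cyclin and Cdk1 genes measured, 1 rose for oxazolone and 0 for urushiol with all 9 arrays, and 4 for each without control array 3. Ccnb2 (cyclin B2) had log2 values of 11.16, 11.29 and 11.01 on the oxazolone arrays and 10.88, 10.94 and 11.33 on the urushiol arrays, against 8.16, 7.85 and 10.90 on the control arrays. Control array 3 sat inside the challenged range, far above the other controls. The differences of 2.18 ± 0.73 (adjusted p = 0.0837) and 2.08 ± 0.73 (adjusted p = 0.0994) therefore carried errors of 0.73 and did not pass; without control array 3 they were 3.15 ± 0.17 (adjusted p = 9.79e-05) and 3.04 ± 0.17 (adjusted p = 0.000122). Ccna2 (cyclin A2), which drives S phase and entry to mitosis, had log2 values of 11.17, 11.21 and 10.95 on the oxazolone arrays and 10.86, 11.00 and 10.97 on the urushiol arrays, against 8.55, 7.82 and 10.92 on the control arrays. Its control array 3 also lay among the challenged arrays, and the differences were 2.01 ± 0.70 (adjusted p = 0.0921) and 1.85 ± 0.70 (adjusted p = 0.119), then 2.92 ± 0.21 (adjusted p = 0.000287) and 2.76 ± 0.21 (adjusted p = 0.000354). Cdk1, the kinase these cyclins activate, had log2 values of 8.92, 9.0 and 8.68 on the oxazolone arrays and 8.69, 8.68 and 8.92 on the urushiol arrays, against 7.13, 6.88 and 8.43 on the control arrays. No control reached a challenged array. The oxazolone difference of 1.39 ± 0.37 (adjusted p = 0.0455) passed with all 9 arrays and the urushiol difference of 1.28 ± 0.37 (adjusted p = 0.0574) did not; whether they differ was tested directly and gave -0.10 ± 0.37 (adjusted p = 1) for urushiol minus oxazolone. Ccne2, a cyclin of S-phase entry, had differences of 0.79 ± 0.30 and 0.96 ± 0.30 and passed only without control array 3.

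Of 5 mitotic kinases 0 rose with all 9 arrays and 5 rose without control array 3, for both allergens. Plk1, which drives entry to mitosis and spindle assembly, had log2 values of 8.96, 8.93 and 8.93 on the oxazolone arrays and 8.73, 9.35 and 9.49 on the urushiol arrays, against 7.11, 6.97 and 8.98 on the control arrays. Urushiol array 1 lay below control array 3, so the groups overlapped. Its differences were 1.25 ± 0.52 (adjusted p = 0.136) and 1.5 ± 0.52 (adjusted p = 0.0919), and 1.90 ± 0.22 (adjusted p = 0.00161) and 2.15 ± 0.22 (adjusted p = 0.00102) without control array 3. Melk, a kinase abundant in dividing progenitor cells, had log2 values of 7.92, 7.97 and 7.80 on the oxazolone arrays and 7.82, 8.01 and 8.11 on the urushiol arrays, against 6.11, 5.94 and 7.69 on the control arrays. Here all challenged arrays stayed above control array 3, yet the differences of 1.32 ± 0.42 (adjusted p = 0.075) and 1.4 ± 0.42 (adjusted p = 0.0655) did not pass; without that control they were 1.87 ± 0.10 (adjusted p = 0.000107) and 1.96 ± 0.10 (adjusted p = 0.000103). Aurka, of the spindle poles, Aurkb, of the passenger complex, and Nek2, of the centrosome, had differences between 0.71 and 0.89 in both allergen groups.

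The spindle checkpoint and kinetochore genes ranged widely, from Cenpe, with differences above 2 in the fit of all 9 arrays, to Ttk, with differences near 0. Cenpe, the kinetochore motor that moves chromosomes to the spindle equator, had log2 values of 10.28, 10.16 and 10.19 on the oxazolone arrays and 9.90, 10.11 and 9.97 on the urushiol arrays, against 7.27, 6.75 and 9.48 on the control arrays. Control array 3 was below the lowest challenged array by 0.42 and above the mean of the other controls by 2.47. The difference was 2.38 ± 0.63 (adjusted p = 0.0437) in oxazolone skin, which passed, and 2.16 ± 0.63 (adjusted p = 0.058) in urushiol skin, which did not. The values were 3.20 ± 0.15 (adjusted p = 6.2e-05) and 2.98 ± 0.15 (adjusted p = 8.86e-05) without control array 3. Nuf2, of the microtubule-binding Ndc80 complex, had log2 values of 9.06, 9.04 and 8.79 on the oxazolone arrays and 8.84, 8.93 and 8.97 on the urushiol arrays, against 6.95, 6.28 and 8.48 on the control arrays. All 6 challenged arrays exceeded the controls, with differences of 1.73 ± 0.49 (adjusted p = 0.054) and 1.68 ± 0.49 (adjusted p = 0.0596), and 2.35 ± 0.20 (adjusted p = 0.000517) and 2.30 ± 0.20 (adjusted p = 0.000563) without control array 3. Bub1, a checkpoint kinase, had log2 values of 9.06, 9.03 and 8.84 on the oxazolone arrays and 8.77, 8.86 and 8.95 on the urushiol arrays, against 6.69, 6.44 and 8.74 on the control arrays. Again every challenged array exceeded every control, and the differences were 1.69 ± 0.55 (adjusted p = 0.0772) and 1.57 ± 0.55 (adjusted p = 0.0968), then 2.41 ± 0.11 (adjusted p = 4.71e-05) and 2.29 ± 0.11 (adjusted p = 6.23e-05) with 8 arrays.

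Ttk (Mps1), the kinase at the head of the same checkpoint, had log2 values of 9.35, 9.49 and 9.35 on the oxazolone arrays and 9.21, 9.31 and 9.42 on the urushiol arrays, against 9.29, 8.85 and 9.78 on the control arrays. Its highest value was on control array 3 and its lowest on control array 2, and all arrays but control array 2 lay between 9.21 and 9.78. Its differences of 0.09 ± 0.21 (adjusted p = 0.799) and 0.01 ± 0.21 (adjusted p = 1) did not pass, nor did those of 0.33 ± 0.14 (adjusted p = 0.141) and 0.24 ± 0.14 (adjusted p = 0.276) without control array 3. Bub1b, Cenpf and Ndc80 had differences of 1.19 ± 0.41, 1.27 ± 0.51 and 1.5 ± 0.46 for oxazolone and 1.15 ± 0.41, 0.93 ± 0.51 and 1.43 ± 0.46 for urushiol.

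Of the 5 genes of the passenger complex and anaphase exit, 0 rose with 9 arrays and 5 with 8, for both allergens. Ube2c, the ubiquitin-conjugating enzyme of the anaphase-promoting complex, had log2 values of 11.32, 10.84 and 11.04 on the oxazolone arrays and 11.05, 10.82 and 11.12 on the urushiol arrays, against 8.88, 8.70 and 10.65 on the control arrays. The challenged arrays all stood above control array 3. Its differences were 1.66 ± 0.48 (adjusted p = 0.057) and 1.59 ± 0.48 (adjusted p = 0.0662), and 2.28 ± 0.16 (adjusted p = 0.000267) and 2.21 ± 0.16 (adjusted p = 0.000302) without control array 3. Cdc20, an activator of that complex, had log2 values of 7.30, 7.30 and 7.30 on the oxazolone arrays and 7.30, 7.45 and 7.81 on the urushiol arrays, against 6.19, 5.89 and 7.30 on the control arrays. The value 7.30 recurred on 5 arrays, control array 3 among them, and the differences were 0.84 ± 0.34 (adjusted p = 0.131) and 1.06 ± 0.34 (adjusted p = 0.0777), then 1.26 ± 0.16 (adjusted p = 0.00246) and 1.48 ± 0.16 (adjusted p = 0.00132) with 8 arrays. Birc5 (survivin), Cdca8 (borealin) and Cdca3 had small differences, 0.47 to 0.70 for oxazolone and 0.46 to 0.68 for urushiol. Birc5 and Cdca3 averaged 6.15 and 6.01 over all arrays, near the median of all genes (6.06 to 6.18 by array), and the effect of this low level was not tested.

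Of the spindle motors and their partners, Kif11 and Tpx2 had differences well above the members' median, and Kif2c and Nusap1 lay near it. Kif11, the motor that pushes spindle poles apart, had log2 values of 11.81, 12.22 and 11.68 on the oxazolone arrays and 11.57, 11.58 and 11.82 on the urushiol arrays, against 8.91, 8.09 and 11.52 on the control arrays. Control array 3 was 0.05 under the lowest challenged array and 3.02 above the mean of the other controls. Its differences of 2.40 ± 0.78 (adjusted p = 0.0786) and 2.15 ± 0.78 (adjusted p = 0.108) did not pass, and became 3.40 ± 0.27 (adjusted p = 0.000428) and 3.16 ± 0.27 (adjusted p = 0.00057) without control array 3. Tpx2, which activates Aurora A on the spindle, had log2 values of 10.51, 10.28 and 10.11 on the oxazolone arrays and 10.15, 10.19 and 10.38 on the urushiol arrays, against 7.78, 7.45 and 9.82 on the control arrays. The groups did not overlap, and the differences were 1.95 ± 0.56 (adjusted p = 0.056) and 1.89 ± 0.56 (adjusted p = 0.0626), then 2.69 ± 0.15 (adjusted p = 0.000114) and 2.62 ± 0.15 (adjusted p = 0.00014) with 8 arrays. Kif2c, which depolymerises microtubules, and Nusap1, which bundles them, had differences of 1.39 ± 0.44 and 1.38 ± 0.47 for oxazolone and 1.4 ± 0.44 and 1.15 ± 0.47 for urushiol.

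Midzone and cytokinesis genes complete the division. Ect2, the exchange factor that starts the contractile ring, had log2 values of 10.72, 10.69 and 10.40 on the oxazolone arrays and 10.42, 10.38 and 10.54 on the urushiol arrays, against 8.42, 8.00 and 10.38 on the control arrays. Control array 3 equalled the lowest challenged array. The differences were 1.67 ± 0.55 (adjusted p = 0.0814) and 1.51 ± 0.55 (adjusted p = 0.109), and 2.39 ± 0.15 (adjusted p = 0.000182) and 2.24 ± 0.15 (adjusted p = 0.000245) without control array 3. Kif20a, a motor of the midzone, had log2 values of 9.67, 9.49 and 9.43 on the oxazolone arrays and 9.43, 9.51 and 9.81 on the urushiol arrays, against 7.70, 7.36 and 9.43 on the control arrays. The value 9.43 stood on oxazolone array 3, urushiol array 1 and control array 3, and the differences were 1.37 ± 0.49 (adjusted p = 0.098) and 1.42 ± 0.49 (adjusted p = 0.0935), then 2.00 ± 0.15 (adjusted p = 0.000383) and 2.05 ± 0.15 (adjusted p = 0.000346) with 8 arrays. Prc1, Anln, Racgap1 and Kif23 had differences from 0.82 to 1.32 for oxazolone and from 0.64 to 1.34 for urushiol. All 6 genes passed for both allergens without control array 3.

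The genes of chromosome structure, Mki67 and Top2a, had wide control groups. Mki67, whose product Ki-67 coats mitotic chromosomes and marks cycling cells, had log2 values of 14.68, 15.01 and 14.49 on the oxazolone arrays and 14.15, 14.69 and 14.54 on the urushiol arrays, against 11.48, 10.74 and 14.52 on the control arrays. Control array 3 was within the range of the challenged arrays, and 3.41 above the mean of the other controls, the highest such step of any member. The differences of 2.48 ± 0.88 (adjusted p = 0.0957) and 2.21 ± 0.88 (adjusted p = 0.133) had errors too wide to pass, and were 3.62 ± 0.28 (adjusted p = 0.000381) and 3.35 ± 0.28 (adjusted p = 0.000509) without control array 3. Top2a, which untangles replicated DNA, had log2 values of 12.23, 12.36 and 12.25 on the oxazolone arrays and 11.89, 12.02 and 12.15 on the urushiol arrays, against 9.48, 8.57 and 11.88 on the control arrays. Control array 3 was 0.01 below the lowest challenged array, and the differences were 2.30 ± 0.74 (adjusted p = 0.0749) and 2.04 ± 0.74 (adjusted p = 0.106), then 3.25 ± 0.25 (adjusted p = 0.000381) and 3.0 ± 0.25 (adjusted p = 0.000519).

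Between the allergens, 0 of the 47 genes were higher and 0 lower in urushiol than in oxazolone skin with all 9 arrays, by limma. Over all genes 0.00664% were higher and 0.00995% lower. No member had an unadjusted p under 0.05, and the differences ran from -0.35 to 0.53 with a median of -0.03. Without control array 3 the counts were again 0 and 0, where 0.0232% of all genes were higher and 0% lower. Then 3 members (Mcm3, Mcm4 and Rrm2) had an unadjusted p under 0.05, and the share of all genes with such a p is not given here. A p that misses the threshold does not show that the allergens act alike, so intervals are given. Without control array 3, Mki67 differed by -0.27 ± 0.25 (adjusted p = 0.877) with a 95% interval of -0.87 to 0.34. Pcna then differed by 0.05 ± 0.11 (adjusted p = 0.959) with an interval of -0.22 to 0.31. With all 9 arrays the intervals were wider, -2.34 to 1.80 for Mki67 and -0.95 to 1.04 for Pcna.

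The signs of the small allergen differences split by role in the fit of all 9 arrays, and this split depended on the settings. Of the 11 replication and nucleotide genes 9 were higher in urushiol skin (median 0.14), whereas 24 of the 33 cyclin and mitosis genes were lower (median -0.07). All 7 checkpoint and kinetochore genes were lower. With the array mean of the growing hair list as a covariate, all 47 members were higher in urushiol skin (median 0.42, range 0.051 to 0.91). So 27 signs turned, and the signs no longer split by role. Without the covariate the median was -0.03 and the range -0.35 to 0.53, so the median and both ends had moved up. Whether the sizes still differed by role was not examined. These genes share arrays, so the signs are not independent, and no test was made on them. The highest difference was that of Mcm3, whose 3 urushiol arrays lay above its 3 oxazolone arrays. It was 0.53 ± 0.13 (adjusted p = 0.332) without control array 3, with an interval of 0.21 to 0.85. With all 9 arrays that interval was -0.47 to 1.52. Cenpf lay at the other end, with every urushiol array below every oxazolone array and a difference of -0.35 ± 0.16 (adjusted p = 0.71). Neither passed.

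**Figure D4:**
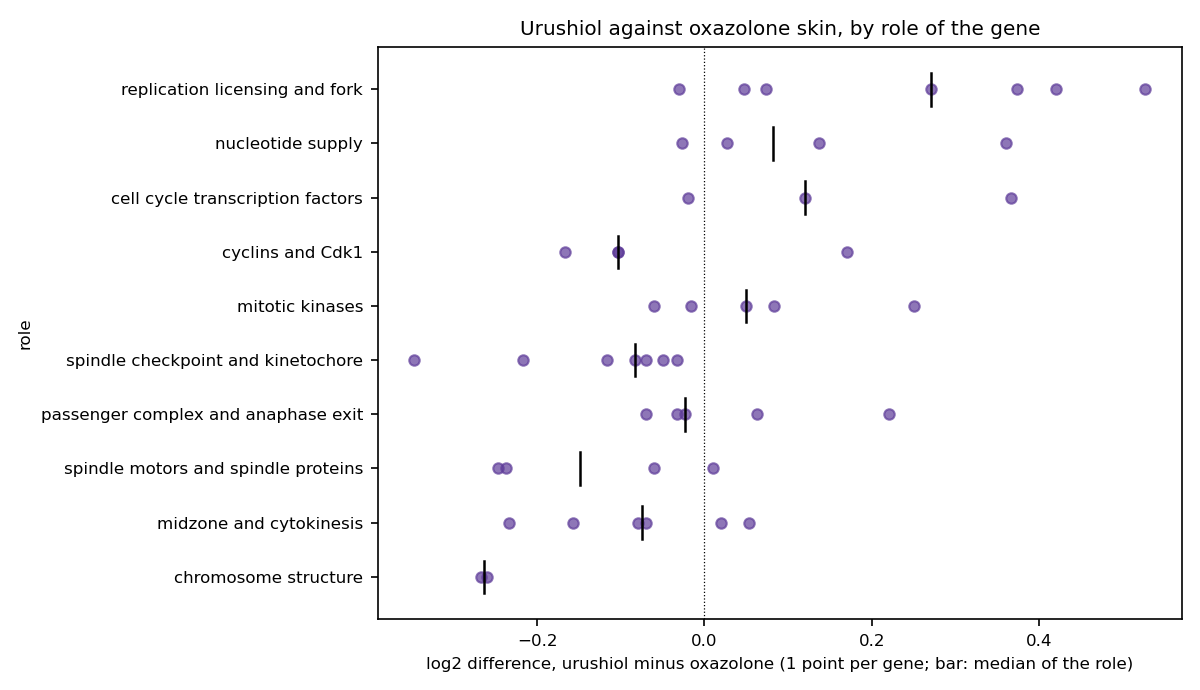
Each point is 1 gene, placed by its log2 difference of urushiol minus oxazolone (fit of all 9 arrays), with 1 line per role and a bar at the median of the role. The replication genes lie mostly right of 0 and the checkpoint, spindle motor and chromosome genes left of it, all within -0.35 and 0.53; no difference passed the test, and with the growing hair list as a covariate all 47 were positive.

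Further genes of the same machinery were counted apart. With 9 arrays 9.63% of all genes were higher and 6.92% lower for oxazolone, and 9.96% and 6.43% for urushiol. With 8 arrays the shares were 15.8% and 10.8% for oxazolone, and 15.1% and 10.2% for urushiol. The counts of every gene list below are to be read beside these shares. Of 34 further replication genes, 3 rose and 1 fell in oxazolone skin, and 6 rose and 1 fell in urushiol skin, with all 9 arrays. Without control array 3, 29 rose and 1 fell for oxazolone and 30 rose and 1 fell for urushiol. Dbf4, which activates the Cdc7 kinase at origins, rose in both (1.69 ± 0.38 (adjusted p = 0.0271) for oxazolone, 1.72 ± 0.38 (adjusted p = 0.0252) for urushiol). Prim2, of the primase, rose in urushiol skin (1.47 ± 0.33 (adjusted p = 0.0267)). Hells, a chromatin remodeller, had 1.74 ± 0.56 (adjusted p = 0.0758) and 2.01 ± 0.56 (adjusted p = 0.052), and Ticrr, which helps fire origins, had 1.32 ± 0.49 (adjusted p = 0.106) for oxazolone.

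Of 50 further mitosis genes, 8 rose and 0 fell for each allergen with 9 arrays. With 8 arrays 48 rose and 0 fell for oxazolone, and 46 rose and 1 fell for urushiol. Smc2, the core of condensin, rose in both (1.76 ± 0.48 (adjusted p = 0.0493) and 1.86 ± 0.48 (adjusted p = 0.0423)), and Trip13, a regulator of the spindle checkpoint, rose in urushiol skin (1.78 ± 0.42 (adjusted p = 0.0318)). Knl1, the kinetochore scaffold, had 1.93 ± 0.60 (adjusted p = 0.07) and 1.83 ± 0.60 (adjusted p = 0.0832), and the condensin subunit Ncapg had 1.87 ± 0.55 (adjusted p = 0.059) for oxazolone. Of 14 DNA damage and repair genes of S phase, 0 rose for oxazolone and 2 for urushiol with 9 arrays, and 13 rose for each with 8. Chek2, a checkpoint kinase, rose in urushiol skin (0.98 ± 0.26 (adjusted p = 0.045)). The differences of Chek1 (1.24 ± 0.40 (adjusted p = 0.0784) and 1.32 ± 0.40 (adjusted p = 0.0674)) and Blm (1.11 ± 0.36 (adjusted p = 0.0742) and 1.2 ± 0.36 (adjusted p = 0.0614)) did not pass with 9 arrays, nor did that of Brca1 for oxazolone (1.01 ± 0.34 (adjusted p = 0.0844)).

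Upstream of S phase, 2 of 9 G1 genes rose for each allergen with 9 arrays and 5 of 9 with 8. Cdk6, a partner of the D cyclins, had log2 values of 11.51, 11.33 and 12.41 on the oxazolone arrays and 11.93, 11.45 and 12.03 on the urushiol arrays, against 9.54, 9.57 and 10.53 on the control arrays. No control reached a challenged array, and the differences were 1.87 ± 0.37 (adjusted p = 0.0192) and 1.92 ± 0.37 (adjusted p = 0.0169), then 2.19 ± 0.34 (adjusted p = 0.00544) and 2.25 ± 0.34 (adjusted p = 0.00495) without control array 3. Ccne1 (cyclin E1), which acts at the entry to S phase, had log2 values of 7.49, 7.37 and 8.14 on the oxazolone arrays and 7.64, 7.72 and 7.47 on the urushiol arrays, against 5.95, 6.05 and 6.88 on the control arrays. Again the groups did not overlap, with 1.37 ± 0.29 (adjusted p = 0.0228) and 1.32 ± 0.29 (adjusted p = 0.0257), then 1.67 ± 0.23 (adjusted p = 0.0033) and 1.61 ± 0.23 (adjusted p = 0.00378). Cdk4 did not pass with 9 arrays (0.95 ± 0.41 (adjusted p = 0.147) and 0.88 ± 0.41 (adjusted p = 0.185)). Of 13 genes of the Rb and E2F families, 4 rose and 1 fell for each allergen with 9 arrays. With 8 arrays 6 rose and 3 fell for oxazolone, and 5 rose and 3 fell for urushiol; the 3 that fell were Rbl2, E2f6 and Tfdp2 for each allergen, the last 2 named after their values were seen.

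The gene that fell for oxazolone was Rbl2 (p130), the pocket protein that represses E2F targets in resting cells, and it also fell for urushiol. It had log2 values of 9.72, 9.62 and 9.74 on the oxazolone arrays and 9.65, 10.03 and 10.03 on the urushiol arrays, against 11.08, 11.20 and 10.70 on the control arrays. All challenged arrays were below all controls, with control array 3 the lowest of these. The differences were -1.30 ± 0.15 (adjusted p = 0.00323) and -1.09 ± 0.15 (adjusted p = 0.00563), and -1.45 ± 0.13 (adjusted p = 0.000609) and -1.24 ± 0.13 (adjusted p = 0.00109) without control array 3. E2f7, the partner of E2f8 in repression, had log2 values of 7.67, 7.52 and 7.52 on the oxazolone arrays and 8.01, 7.93 and 8.17 on the urushiol arrays, against 5.99, 6.19 and 6.80 on the control arrays. It rose by 1.24 ± 0.20 (adjusted p = 0.00879) and 1.71 ± 0.20 (adjusted p = 0.00292), and by 1.48 ± 0.098 (adjusted p = 0.000214) and 1.95 ± 0.098 (adjusted p = 8.4e-05) with 8 arrays. Tfdp1, the dimer partner of the E2F activators, rose by 1.09 ± 0.23 (adjusted p = 0.0216) and 1.34 ± 0.23 (adjusted p = 0.0107), and by 1.38 ± 0.065 and 1.63 ± 0.065 with 8 arrays. Rbl1 (p107) did not pass with 9 arrays (1.39 ± 0.44 (adjusted p = 0.0715) and 1.18 ± 0.44 (adjusted p = 0.113)) and passed with 8 (1.94 ± 0.18 (adjusted p = 0.000803) and 1.73 ± 0.18 (adjusted p = 0.00122)).

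Most of the brakes on division were not called in either direction. Of 16 Cdk inhibitor and arrest genes, 3 rose and 1 fell in oxazolone skin with 9 arrays, where 9.63% of all genes were higher and 6.92% lower. In urushiol skin 4 rose and 1 fell, where 9.96% of all genes were higher and 6.43% lower. With 8 arrays 4 rose and 2 fell for each. Then 15.8% of all genes were higher and 10.8% lower for oxazolone, and 15.1% and 10.2% for urushiol. None of the 8 Cdkn genes passed with 9 arrays. Cdkn1a (p21) had 0.15 ± 0.1 (adjusted p = 0.321) and 0.24 ± 0.1 (adjusted p = 0.147), and Cdkn1b (p27) had -0.42 ± 0.21 (adjusted p = 0.213) and -0.75 ± 0.21 (adjusted p = 0.0554). Cdkn1c (p57) had -0.45 ± 0.17 (adjusted p = 0.105) and -0.43 ± 0.17 (adjusted p = 0.127), and fell by 0.65 ± 0.081 (adjusted p = 0.00224) and by 0.63 ± 0.081 (adjusted p = 0.00261) once control array 3 was left out. The INK4 genes Cdkn2a, Cdkn2b, Cdkn2c and Cdkn2d had differences of 0.03 ± 0.031, 0.07 ± 0.046, -0.37 ± 0.19 and 0.15 ± 0.15 for oxazolone, and of 0.02 ± 0.031, 0.03 ± 0.046, -0.37 ± 0.19 and -0.13 ± 0.15 for urushiol. Cdkn3, a phosphatase that acts on Cdk2, had 1.37 ± 0.42 (adjusted p = 0.065) and 1.36 ± 0.42 (adjusted p = 0.0678), and passed without control array 3.

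Btg1, an anti-proliferative gene, rose by 1.79 ± 0.27 (adjusted p = 0.00777) and 1.69 ± 0.27 (adjusted p = 0.00882), and by 2.03 ± 0.24 (adjusted p = 0.00187) and 1.94 ± 0.24 (adjusted p = 0.00225) with 8 arrays. Ccng1 (cyclin G1), a target of p53, had log2 values of 13.10, 12.30 and 12.94 on the oxazolone arrays and 13.71, 13.32 and 13.65 on the urushiol arrays, against 17.50, 17.38 and 15.21 on the control arrays. Every challenged array was below every control, with control array 3 the nearest to them. It fell by 3.92 ± 0.59 (adjusted p = 0.00777) in oxazolone skin and by 3.14 ± 0.59 (adjusted p = 0.0155) in urushiol skin, and without control array 3 it fell by 4.66 ± 0.25 (adjusted p = 9.53e-05) in oxazolone skin and fell by 3.88 ± 0.25 (adjusted p = 0.000199) in urushiol skin. The skeletal muscle list (10 of 10 genes measured) had means of 7.96, 6.94 and 8.94 on the oxazolone arrays and 10.91, 11.11 and 11.76 on the urushiol arrays, against 17.65, 17.69 and 15.05 on the control arrays. The order of the groups was that of Ccng1, with control array 3 again the lowest control, but the order of arrays within the allergen groups was not. The part of muscle in the fall of Ccng1 was not tested.

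Markers of the cell types that the skin samples could hold moved with the members to different degrees. Of the 24 growing hair genes, 1 rose for oxazolone and 0 for urushiol with 9 arrays, and 24 and 17 with 8. With the array mean of the hair list as a covariate, 0 members rose for either allergen with 9 arrays, and 1 for oxazolone and 8 for urushiol with 8. The median difference over the members was then 0.12 for oxazolone, with 36 of 47 positive, and 0.61 for urushiol, with 43 of 47 positive, in the fit of 9 arrays. The hair mean was 5.99 and 6.07 on control arrays 1 and 2 and 10.21 to 13.73 on the challenged arrays. With 8 arrays it thus nearly repeats the groups, and with 9 only control array 3 (11.14) parts them. The covariate therefore cannot tell hair from challenge, and the part of hair in the members' differences was not tested. Wound and stress keratinocyte genes (6 of 8 measured, all 6 higher for both allergens) averaged 15.49, 14.56 and 15.92 on the oxazolone arrays and 17.15, 15.79 and 16.63 on the urushiol arrays, against 7.32, 8.09 and 9.05 on the control arrays. On control array 3 their mean was above both other controls but far below every challenged array. The mean of the members on control array 3 lay just under the lowest challenged array (8.97 against 9.02 on urushiol array 1). Basal keratinocyte genes (8 of 8) averaged 12.30 to 12.98 for oxazolone, 12.74 to 12.91 for urushiol and 12.49 to 12.97 for control. That mean joins genes that moved in opposite directions: 2 rose and 1 fell for each allergen with 9 arrays, with differences from -4.17 to 2.53 for oxazolone and from -4.70 to 3.07 for urushiol.

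T cell genes (9 of 11) averaged 7.26, 6.54 and 7.73 on the oxazolone arrays and 6.29 to 6.52 on the urushiol arrays, against 6.35 to 6.44 on the control arrays. That mean also joins opposite directions. With 9 arrays 2 rose and 1 fell for oxazolone (differences from -1.10 to 2.97), and 1 rose and 2 fell for urushiol (-1.87 to 1.74). Oxazolone array 2 had the lowest T cell mean of its group and the same member mean as oxazolone array 1. Neutrophil genes (12 of 12) averaged 7.85 to 8.22 for oxazolone, 8.00 to 8.56 for urushiol and 5.61 to 5.86 for control, with control array 3 at 5.85. With 9 arrays 6 rose for each allergen and 6 were not called. Differences ran from 0.01 to 8.81 for oxazolone and from -0.03 to 10.58 for urushiol. S100a8 and S100a9 belong to this list and to the wound keratinocyte list, so the 2 lists are not independent. Erythroid genes (3 of 6) averaged 5.27 to 5.59, at or below the median of 5.58 over all transcript clusters, and B cell genes (5 of 6) averaged 4.71 to 4.85, below it. Melanocyte genes (8 of 8) averaged 8.61 on control array 3, against 6.31 and 6.26 on the other controls, and 7.25 to 10.23 on the challenged arrays. Suprabasal keratinocyte genes (6 of 6) averaged 16.26 on control array 3 and 15.25 and 15.29 on the other controls. Challenged arrays held 15.92 to 16.86, and single genes went both ways (-1.62 to 2.41 for oxazolone). Endothelial genes (6 of 6) averaged 7.97 on control array 3, 8.82 and 8.83 on the other controls, and 7.55 to 8.83 when challenged. For the monocyte, fibroblast, and sebaceous and adipocyte lists, control array 3 lay outside the challenged range. The part of these cell types in the members' differences was not tested.

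**Figure D5:**
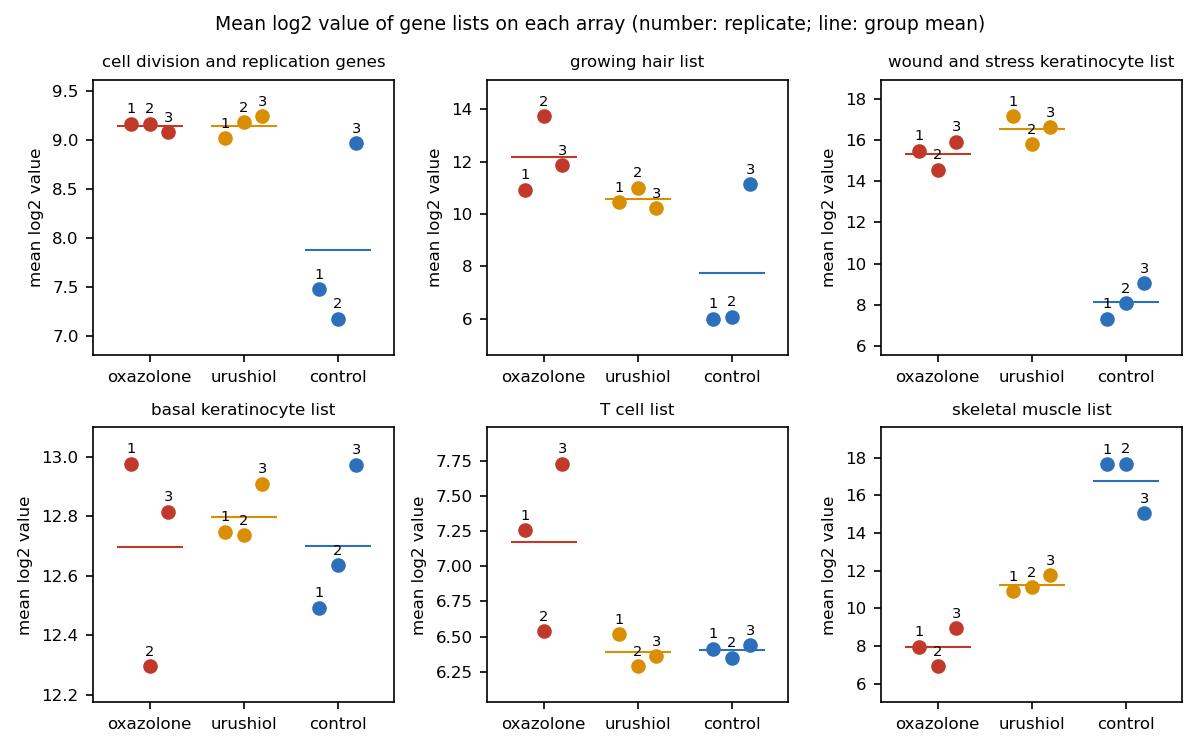
Each panel plots the mean log2 value of 1 gene list on each array, with the replicate number beside the point and a line at the group mean. Control array 3 lies with the challenged arrays for the cell division and growing hair lists, and near the other controls for the T cell list. For the wound keratinocyte list it is above the other controls but far below the challenged arrays, and for the skeletal muscle list it lies between.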

How the data were processed

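RNA of whole neck skin was measured on Affymetrix arrays in 9 mice, 3 per group. The deposited values are log2 expression per transcript cluster, already normalised; the submitters' processing notes name Affymetrix Expression Console 1.4, RMA and Transcriptome Analysis Console, with build and annotation version not given in the sources used here. Values run from 2.20 to 19.93, above the log2 value of 16 that a 16-bit scanner can return, so their exact scale is unknown and differences are given as deposited. The number of arrays limits the precision.

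Array control features (6732) were left out. Symbols came from the platform annotation, with 827 updated, and 30604 of 65956 clusters carried 1 symbol. Where a gene had several clusters (355 genes), the one with the highest mean was used. The fit was limma 3.58.1 in R 4.3.3 (lmFit, eBayes), with p-values adjusted by Benjamini-Hochberg over 30142 genes, and was tested on simulated data. Members and lists were chosen with earlier results of these data known. Named with values on each array were the 2 or 3 genes of each role with the largest mean difference, and Mki67, Top2a, Cdk1, Rrm2, Pcna, Mcm2 and E2f1; Mcm3 and Ttk were added after their values were seen. In the other lists the 3 genes with the largest difference per allergen and all Cdkn genes were named. Oxazolone and urushiol arrays of the same replicate number deviated together from their group means (correlations of 0.201, 0.197 and 0.124). Control array 1 had 0.337 with oxazolone array 1 and 0.123 with urushiol array 1. Control arrays 2 and 3 had -0.163 and -0.052 with the oxazolone array of their number, and 0.064 and -0.232 with the urushiol array. Arrays of unlike number reached 0.285, so these correlations do not settle a pairing. Equal numbers were treated as paired in an alternative.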

Additional observations from a re-analysis of the deposited data

How the results depend on the processing

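The counts of members that rose with all 9 arrays (3 for oxazolone, 4 for urushiol) depended on the settings. They were 6 for oxazolone with median centring, 21 and 24 with dim genes filtered out, and 44 and 45 with array weights. They were 0 and 0 with the 2 groups fitted alone, with the growing hair mean as a covariate, and at an adjusted p under 0.01. With the replicate block they were 0 for oxazolone and 3 for urushiol, and 0 and 0 with the block and the 2 groups alone. Leaving out 1 array gave 0 to 45 for each allergen: 45 without control array 3, and 0 without any other single array. The filter tests fewer genes, and the cause of the other changes was not tested. The share of all genes called under each alternative is not given here, so these counts cannot be read as particular to the members.

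Without control array 3 the counts of 45 stayed at 43 to 47 when a further array was left out; where that leaves 1 control, it is assumed to vary like the other groups. They fell to 0 and 0 with the replicate block and the 2 groups alone, where few residual degrees of freedom are left, and to 1 and 8 with the hair covariate. That covariate nearly repeats the split of control and challenged arrays, so it cannot tell hair from challenge. The replicate block in the fit of all arrays left the counts at 45 and 45. Members lower than control, and members that differed between the allergens, numbered 0 under every setting run; the replicate block changed no allergen call. No called difference changed sign under the alternatives to the fit of all 9 arrays. Among differences that were not called, signs did turn: the hair covariate turned 11 of 47 for oxazolone, 4 for urushiol and 27 between the allergens, and gave medians of 0.12 for oxazolone and 0.61 for urushiol, against 1.32 and 1.36 without it. Array weights turned 7 signs between the allergens, and leaving out 1 challenged array turned 4 to 6. Precision is limited by 3 arrays per group and, without control array 3, by 2 controls.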
